A study of Mus musculus with 16 samples.

Results

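The genes described here are the glutathione transferases, glutathione peroxidases, peroxiredoxins, thioredoxin and superoxide dismutase genes of mouse visceral fat, with catalase, the enzymes of glutathione synthesis and the NRF2 pathway genes Nfe2l2, Keap1 and Nqo1. They were taken by name from the protein-coding genes of the deposited table, which gave 55 genes of 45777 in all. Of these, 49 had enough counts to be tested, out of 19189 genes tested. The rule uses names and no measured level. RNA was sequenced from epididymal white fat, the visceral pad beside the epididymis, of male mice in 4 groups of 4 mice. The groups were 20-week-old mice labelled A-LTA4HOE, which overexpress leukotriene A4 hydrolase in adipocytes (OE), 20-week-old control mice (Ctrl), 8-week-old OE mice and 8-week-old Ctrl mice. All 4 groups ate a diet with 60% of its calories as fat from 4 weeks of age, so the 20-week mice had 16 weeks of it and the 8-week mice had 4 weeks. The labels name neither the promoter that drives the extra enzyme nor the strain, nor do they say whether the controls carried any other allele. Age, length of diet and any batch that follows age cannot be told apart in this design. The labels do not say whether mice shared cages or litters, so p-values measure the spread between these 16 samples.

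Glutathione transferases join the tripeptide glutathione to reactive lipid and drug products so that cells can export them. They fall into classes, of which alpha, mu, pi, theta, omega and kappa are soluble, while MGST1 sits in membranes. Glutathione peroxidases, peroxiredoxins and catalase remove peroxides, superoxide dismutases make hydrogen peroxide out of superoxide, and thioredoxin with its reductases regenerates the peroxiredoxins. Many of these genes are targets of the transcription factor NRF2 (Nfe2l2), which KEAP1 holds in check until electrophiles modify it. In fat, GSTA4 is known for clearing 4-hydroxynonenal, a product of lipid peroxidation that modifies adipocyte proteins.

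Levels per library are given as CPM, a per-million scaling of read counts with TMM factors. Total counts were 33626901 to 67576994 per library, so that the limit allowed by a count of 0, 3 counts, is 0.0406 to 0.0887 CPM, for counting error only. Lta4h, the targeted gene, was higher in every OE library than in every Ctrl library, at 270.3, 286, 278 and 239 CPM in OE and 95.4, 82.4, 89 and 87.3 CPM in Ctrl at 20 weeks, and at 398, 251, 427 and 335 CPM in OE and 104, 79.4, 85.4 and 90.0 CPM in Ctrl at 8 weeks. By age in OE it was not called (−0.39 ± 0.14, adjusted p = 0.0522 by edgeR's quasi-likelihood test), although 6 of 25 other settings called it lower at 20 weeks, among them DESeq2 (adjusted p = 0.0154) and voom (adjusted p = 0.0149). Mature adipocyte markers were present in every library, with a sum over 12 genes of at least 11517 CPM. OE replicate 1 at 20 weeks stood apart from the other 20-week libraries, with 28683 CPM of adipocyte markers against 11517 to 21419 CPM in the rest, and 4540 CPM of macrophage markers against 6933 to 11488 CPM. OE replicate 2 and Ctrl replicate 4 at 8 weeks held transcripts of the epididymal duct, at 2710 and 4101 CPM summed over 17 genes. Ctrl replicate 3 at 8 weeks followed with 211 CPM, while the other 13 libraries had at most 22.4 CPM. Most of these highest sums came from Crisp1 (2418 and 3672 CPM) and Spink8 (280 and 411 CPM). Lcn10 and Spint4 were at 0 in every library, and Adam7 was highest in Ctrl replicate 3 at 8 weeks, at 24 CPM. The libraries numbered 1 at 8 weeks, OE and Ctrl, stood apart together on the second principal component, which held 13.9% of the variance. On the first, which held 55.8%, they lay at −19.5 and −29.9, against 68.8 to 125 in the other 8-week libraries. OE replicate 1 at 20 weeks lay at 22.4 on it, and the other 20-week libraries at −96.6 to −66.7. The ages thus overlapped on the first component through these libraries.

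The binding element of NRF2 is known as the antioxidant response element, and its core was searched as TGACNNNGC on either strand (GCNNNGTCA on the other) in the 250 bases before and 50 bases after each RefSeq start on GRCm38.p6. Of the 48 members that could be searched, 10 held at least 1 match, or 20.8%, against 14% of 27018 genes. A match is a description of letters and not a site shown to be used. The 10 genes were Gclm, Gsta3, Gstm5, Gstm7, Mgst1, Nfe2l2, Prdx1, Sod1, Srxn1 and Txnrd1. Windows are printed for Gsta3, Gstm5 and Gstm7, which combine a match with some of the largest falls with age, with the match in capitals and each sequence 5′ to 3′ along the gene. The Gsta3 window is chr1:21240335-21240634 on the plus strand with its match 121 bases before the start, the Gstm5 window is chr3:107895604-107895903 on the plus strand with its match 42 bases before it, and the Gstm7 window is chr3:107931565-107931864 on the minus strand with its match 129 bases before it. A second RefSeq start of Gstm7 lies farther upstream, with the window chr3:107931768-107932067 and no match. The printed Gstm7 match lies downstream of that start, so it may fall within the transcript made from it. Gstm6, which also fell strongly in Ctrl, had no match, and Gsta4 was not among the members searched.
Gsta3: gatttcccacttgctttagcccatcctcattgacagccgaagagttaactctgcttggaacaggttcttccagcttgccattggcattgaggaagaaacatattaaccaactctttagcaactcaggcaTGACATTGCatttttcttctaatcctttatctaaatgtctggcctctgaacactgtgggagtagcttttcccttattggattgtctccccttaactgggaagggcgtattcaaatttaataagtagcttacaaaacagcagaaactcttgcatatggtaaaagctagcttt
Gstm5: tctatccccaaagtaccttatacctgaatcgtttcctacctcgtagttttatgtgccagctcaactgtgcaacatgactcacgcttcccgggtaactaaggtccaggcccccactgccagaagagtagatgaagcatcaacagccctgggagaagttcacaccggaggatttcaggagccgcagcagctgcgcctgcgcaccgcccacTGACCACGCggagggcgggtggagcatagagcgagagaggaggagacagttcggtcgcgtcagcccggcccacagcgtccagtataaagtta
Gstm7: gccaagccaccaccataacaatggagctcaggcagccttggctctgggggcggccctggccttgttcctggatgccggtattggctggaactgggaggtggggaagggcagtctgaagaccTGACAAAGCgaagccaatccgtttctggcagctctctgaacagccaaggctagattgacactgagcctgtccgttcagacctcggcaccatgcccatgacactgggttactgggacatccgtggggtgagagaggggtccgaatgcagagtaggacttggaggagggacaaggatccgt

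Several families lie in clusters. The 7 mu-class genes span 149 kb of chromosome 3 (107895854 to 108045179 on GRCm38.p6), Gsta1, Gsta2 and Gsta4 lie within 155 kb of chromosome 9, and Gsta3 lies apart from them on chromosome 1 (21240565 to 21265575). Reads of close copies can be misassigned, and 13 of the 55 genes had a transcript at least 95% identical over 300 or more bases to that of another gene. The pair Gstp1 and Gstp2 was 98.2% identical, and Gpx4 was 99.7% identical to Gpx4-ps2. Gsta1 was 97.2% identical to Gsta2 and 99.5% identical to Gm3776. Gstm1 was 97.9% identical to Gstm2-ps1 and Sod1 was 97.8% identical to Gm8566. Gstm3 was 97.9% identical to Gm8834 and 89.5% identical to Gstm1, and Gstt3 was 100% identical over 525 bases to Gm20441. The separate values of all these genes are uncertain. In addition, 14 members overlap another RefSeq gene, among them Gsta3 with the non-coding Gm28836 and Txnip with the non-coding Gm15441, and the strand setting of the counting is not given in the sources used here.

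On the authors' TPM scale, which corrects for gene length, these genes ranged widely, with Gpx2 lowest at a mean of 0.0118 TPM. Gpx1, the main cytosolic glutathione peroxidase, had the highest mean over the 16 libraries at 1469 TPM, with a range of 926 to 2195 TPM. Gpx4, which reduces lipid peroxides in membranes, averaged 1382 TPM. Mgst1 followed at 1078 TPM and Sod1, the cytosolic superoxide dismutase, at 1037 TPM. Among soluble transferases, Gstm1 (497 TPM), Gstm2 (281 TPM), Gstp1 (247 TPM), Gstm5 (116 TPM), Gstt1 (101 TPM) and Gsta3 (91.8 TPM) had the highest means. Nqo1 averaged 7.36 TPM. The ranges over the 16 libraries overlapped for every pair of neighbours in this order, so no step from 1 gene to the next exceeded its spread.

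The 6 genes that did not pass the filter were Gpx2, Gpx5, Gpx6, Gsta1, Gsta2 and Gstt4. Gsta2, an inducible alpha-class enzyme of liver, was at 7.89 CPM in OE replicate 2 and 3.75 CPM in Ctrl replicate 4 at 8 weeks, and at most 0.181 CPM in the other 14 libraries. Gsta1 reached 0.781 CPM and 0.217 CPM in the same libraries, but its transcript is 97.2% identical to that of Gsta2, so its reads may be misassigned. Gpx5, a peroxidase known from the epididymis, reached 0.135 CPM and 0.447 CPM in those libraries. These are the libraries with the highest sums of epididymal duct markers. Gpx5 was listed at 0 in every other library. Gpx6 was above 0 in the same pair alone, at 0.0539 and 0.0812 CPM, from 2 and 6 counts. The value in OE replicate 2 is below the limit that a count of 0 allows in that library, 0.0808 CPM. Gpx2, a peroxidase of gut epithelium, did not exceed 0.0754 CPM, and Gstt4 did not exceed 1.73 CPM.

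As a group, the transferases were lower at 20 weeks. The summed TPM of the 21 soluble transferase genes was 1625, 1013, 1175 and 954 in OE mice at 20 weeks, against 2136, 2261, 2104 and 2601 at 8 weeks. In Ctrl mice it was 1077, 927, 898 and 1208 at 20 weeks, against 1879.7, 1945, 2628 and 2431 at 8 weeks. The age groups did not overlap in either genotype, and OE replicate 1 had the highest sum at 20 weeks. Over all 55 members the sum ranged from 10560 to 11629 TPM at 20 weeks and from 11664 to 14388 TPM at 8 weeks. The sum over the peroxidases was 3151 to 3638 TPM in OE and 3210.4 to 3840.5 TPM in Ctrl at 20 weeks, and 3198 to 4514 TPM in OE and 3252 to 3749 TPM in Ctrl at 8 weeks, with overlapping ranges. In bulk tissue, fewer cells of a type and less RNA per cell cannot be told apart.

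**Figure D1:**
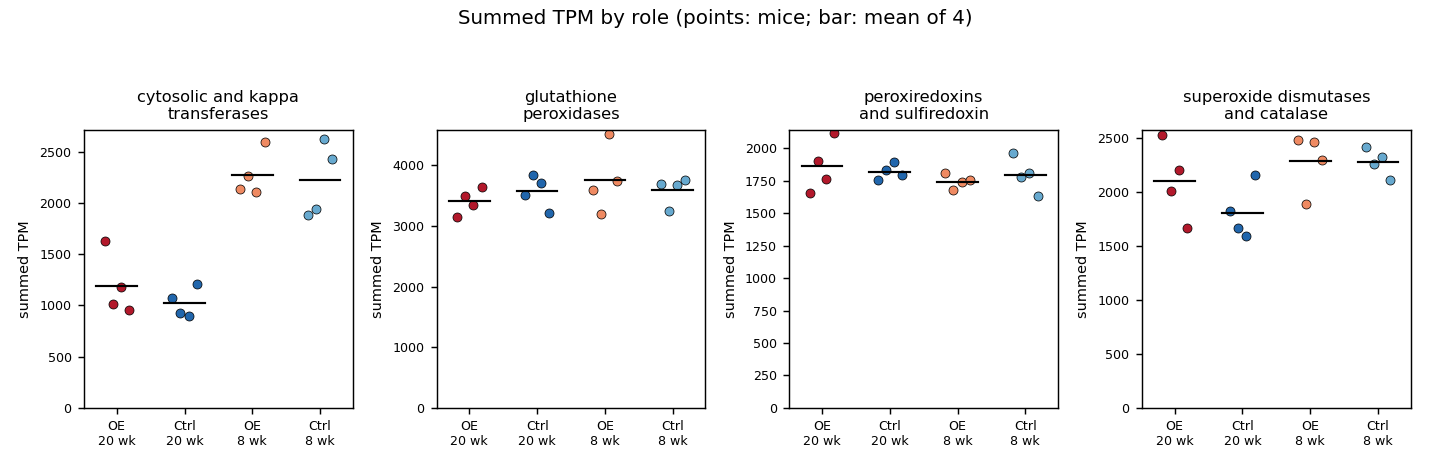
Summed TPM (y axis, from 0) of 4 groups of genes in each library, by genotype and age (x axis), with points for mice and bars for the mean of 4. The transferase sums reach at most 1625 TPM in the 20-week libraries and at least 1880 TPM in the 8-week libraries, while the peroxidase sums overlap between the ages.

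Changes between 20 and 8 weeks were tested gene by gene with edgeR's quasi-likelihood test and Benjamini-Hochberg adjustment over all 19189 genes, with calls made under 0.05. Differences are log2 fold changes of 20 over 8 weeks with their standard errors. In OE mice 1 member rose, 20 fell and 28 were not called, where 13.1% of all genes tested rose and 9.91% fell. Of all genes, 23% were called in OE and 40.9% in Ctrl. In Ctrl mice 6 members rose, 27 fell and 16 were not called, where 19.6% of all genes rose and 21.3% fell. The median change of the 49 members was −0.35 in OE and −0.47 in Ctrl, beside −0.03 and −0.05 over all genes. The CPM of 16 members in OE and 24 in Ctrl lay wholly below the 8-week values, as did those of 9.5% and 14.8% of all genes. Lying wholly above were 2 members in OE and 5 in Ctrl, beside 12.9% and 18.5% of all genes. Of the 33 members called in Ctrl, 20 were also called in OE, all in the same direction.

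**Figure D2:**
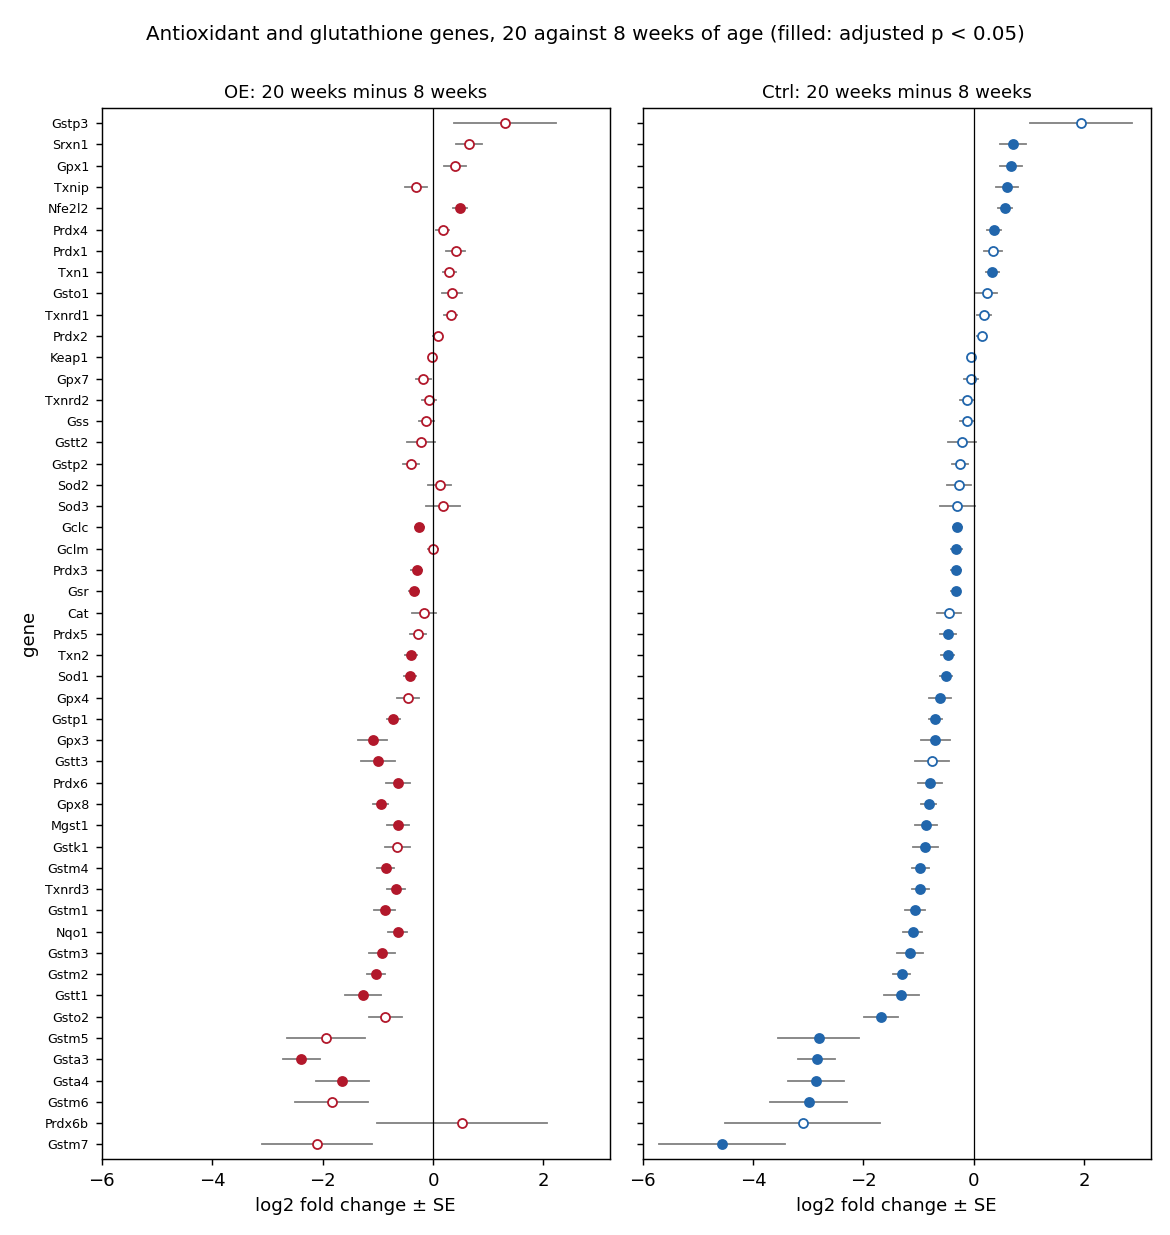
Log2 fold change of 20 over 8 weeks ± SE (x axis) for each of the 49 tested members (y axis, ordered by the Ctrl change), in OE (left) and Ctrl (right), with filled points for adjusted p under 0.05. Among the filled points of the Ctrl panel, Gstm7, Gstm6, Gsta3, Gsta4 and Gstm5 lie farthest to the left, from −4.57 to −2.81.

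The alpha class held some of the largest falls. Gsta3, an alpha-class transferase that in mouse liver detoxifies the epoxide of aflatoxin, was at 33.7, 17.7, 17.2 and 11.8 CPM in OE mice at 20 weeks, against 115, 67, 125 and 113 CPM at 8 weeks. Among Ctrl mice Gsta3 was at 17.3, 11.3, 11.4 and 23.5 CPM at 20 weeks, against 111, 147, 115 and 84.2 CPM at 8 weeks. Every 20-week mouse lay below every 8-week mouse, and the lowest 8-week value was that of OE replicate 2. The change was −2.38 ± 0.33 in OE (adjusted p = 0.000535) and −2.85 ± 0.34 in Ctrl (adjusted p = 6.53e-05), or 5.21-fold and 7.19-fold lower. Gsta4, the 4-hydroxynonenal transferase, was at 21, 10.2, 9.56 and 5.16 CPM in OE mice at 20 weeks, against 13.9, 46.4, 44.6 and 38.3 CPM at 8 weeks. In Ctrl mice Gsta4 was at 2.69, 1.49, 1.71 and 5.69 CPM at 20 weeks, against 26.7, 17.9, 19.9 and 19.2 CPM at 8 weeks. The Ctrl ages did not overlap, whereas in OE the 8-week replicate 1 lay below the 20-week replicate 1. Gsta4 fell by 3.12-fold in OE (−1.64 ± 0.47, adjusted p = 0.0227) and by 7.22-fold in Ctrl (−2.85 ± 0.50, adjusted p = 0.000725). The OE call was lost without any 1 of 5 libraries, with an adjusted p of 0.0510 to 0.0713 (OE 8-week replicates 3 and 4, OE 20-week replicates 2, 3 and 4).

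Of the 7 mu-class genes, which conjugate a broad range of electrophiles, Gstm1, Gstm2, Gstm3 and Gstm4 fell in OE, and all 7 fell in Ctrl. Gstm2 was at 121, 78.4, 94.4 and 71.6 CPM in OE mice at 20 weeks, against 194, 195, 178 and 179.9 CPM at 8 weeks. Ctrl mice had 85.8, 65.1, 68.9 and 99.4 CPM at 20 weeks, against 188, 181, 220.1 and 202 CPM at 8 weeks. The ages were well separated, and the change was −1.03 ± 0.16 in OE (adjusted p = 0.000786) and −1.31 ± 0.16 in Ctrl (adjusted p = 7.57e-05). Gstm1, the most abundant soluble transferase here, was at 291, 193, 238 and 204 CPM in OE mice at 20 weeks, against 556, 324, 404 and 415 CPM at 8 weeks. In Ctrl mice Gstm1 was at 209, 161, 161 and 231 CPM at 20 weeks, against 454, 323, 444 and 373 CPM at 8 weeks. Neither genotype's ages overlapped, with a change of −0.87 ± 0.19 in OE (adjusted p = 0.00446) and −1.07 ± 0.19 in Ctrl (adjusted p = 0.00066). Gstm4 was at 17.3, 12.6, 14.8 and 13.5 CPM in OE mice at 20 weeks, against 32.7, 23.9, 27.6 and 21.2 CPM at 8 weeks, and at 11.4, 12.7, 11.6 and 16.6 CPM in Ctrl mice at 20 weeks, against 28.4, 22.7, 24 and 27.2 CPM at 8 weeks. Again no ages overlapped (−0.86 ± 0.15 in OE, adjusted p = 0.0017, and −0.97 ± 0.15 in Ctrl, adjusted p = 0.000356). Gstm3 was scarce, at 1.33, 1.04, 1.41 and 0.947 CPM in OE mice at 20 weeks, against 2.75, 1.89, 1.77 and 2.53 CPM at 8 weeks. In Ctrl mice Gstm3 was at 1.3, 1.11, 0.729 and 1.25 CPM at 20 weeks, against 2.6, 2.12, 2.49 and 2.57 CPM at 8 weeks. Its ages did not overlap either, with a change of −0.92 ± 0.23 in OE (adjusted p = 0.0112) and −1.15 ± 0.23 in Ctrl (adjusted p = 0.00171).

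Gstm5, Gstm6 and Gstm7, which neighbour each other at 1 end of the cluster, varied more between mice than the other mu-class genes at 8 weeks, and in OE at 20 weeks through replicate 1. Gstm7 was at 34.9, 1.83, 3.54 and 1.98 CPM in OE mice at 20 weeks, against 7.11, 45, 23.6 and 106 CPM at 8 weeks. In Ctrl mice it was at 2.38, 2.06, 1.66 and 2.59 CPM at 20 weeks, against 7.38, 37.1, 108 and 53.3 CPM at 8 weeks. Within the 8-week groups, replicates 1 were the lowest and the highest values were those of OE replicate 4 and Ctrl replicate 3. Gstm5 was at 49.7, 11.7, 13.2 and 9.13 CPM in OE mice at 20 weeks, against 20.7, 77.3, 55.4 and 167 CPM at 8 weeks. In Ctrl mice Gstm5 was at 14.1, 10.9, 10.9 and 14.2 CPM at 20 weeks, against 18.1, 58, 169 and 105 CPM at 8 weeks. The mice high in Gstm7 were also those high in Gstm5. Gstm6 was at 10.3, 1.56, 1.81 and 1.8 CPM in OE mice at 20 weeks, against 7.53, 11.2, 9.64 and 26.7 CPM at 8 weeks. In Ctrl mice Gstm6 was at 1.19, 1.87, 1.18 and 2.83 CPM at 20 weeks, against 6.06, 9.72, 26.6 and 14 CPM at 8 weeks. In OE none of the 3 was called, with changes of −2.10 for Gstm7 (adjusted p = 0.143), −1.84 for Gstm6 (adjusted p = 0.0576) and −1.94 for Gstm5 (adjusted p = 0.0622). In Ctrl no gene of the 3 overlapped between the ages, and Gstm7 fell by 23.7-fold (−4.57 ± 1.14, adjusted p = 0.00663), Gstm6 by 7.97-fold (−2.99 ± 0.69, adjusted p = 0.0042) and Gstm5 by 6.99-fold (−2.81 ± 0.73, adjusted p = 0.00867). OE replicate 1 at 20 weeks, the library rich in adipocyte markers, held the highest 20-week value of each gene, and without it all 3 were called in OE, with a Gstm7 change of −4.22 (adjusted p = 0.0057).

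**Figure D3:**
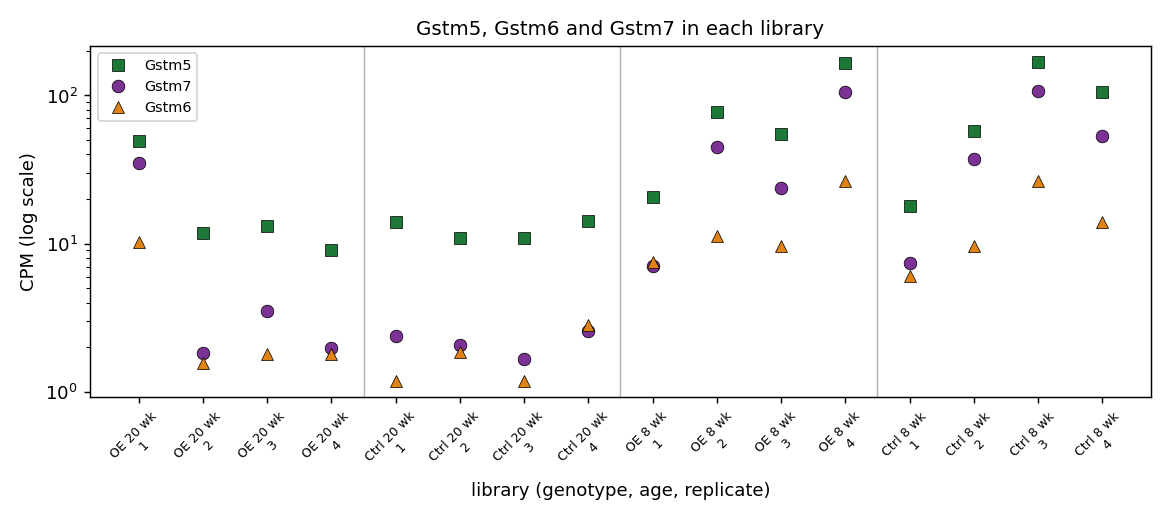
CPM on a log axis (y) of Gstm5, Gstm6 and Gstm7 in each of the 16 libraries (x, named by genotype, age and replicate). OE replicate 1 at 20 weeks lies within the 8-week range for all 3 genes, and the other 20-week libraries lie below it.

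Among the other transferase classes, Gstp1, the pi-class enzyme known to bind the stress kinase JNK, fell in both genotypes, with a change of −0.72 ± 0.12 in OE (adjusted p = 0.00109) and −0.70 ± 0.12 in Ctrl (adjusted p = 0.000555). Its levels were 57 to 83.2 CPM in OE and 56.9 to 70.8 CPM in Ctrl at 20 weeks, and 98.9 to 125 CPM in OE and 102 to 116 CPM in Ctrl at 8 weeks, with no overlap of ages. Its copy Gstp2 was not called (−0.39 ± 0.14 in OE and −0.26 ± 0.14 in Ctrl), nor was the scarce Gstp3. Gstt1, a theta-class enzyme that acts on small halogenated compounds, was at 52.1, 23.9, 27.3 and 16.3 CPM in OE mice at 20 weeks, against 59.7, 56.8, 88.9 and 82.7 CPM at 8 weeks. In Ctrl mice Gstt1 was at 31.7, 27.6, 24.1 and 32.3 CPM at 20 weeks, against 37.9, 90.5, 82.2 and 76.6 CPM at 8 weeks. The ages were separate in both, with OE replicate 1 at 20 weeks and Ctrl replicate 1 at 8 weeks nearest to the other age. It fell with a change of −1.27 ± 0.32 in OE (adjusted p = 0.0117) and with a change of −1.31 ± 0.32 in Ctrl (adjusted p = 0.00598). Gstt3 was at 10.4, 7.48, 8.88 and 8.18 CPM in OE mice at 20 weeks, against 13.1, 19.7, 18.2 and 18.5 CPM at 8 weeks, where it fell with a change of −0.99 ± 0.31 (adjusted p = 0.0313). In Ctrl mice Gstt3 was at 8.29, 11.2, 10.3 and 10.4 CPM at 20 weeks, against 6.35, 15.8, 18 and 27.9 CPM at 8 weeks, a change of −0.76 ± 0.30 that was not called (adjusted p = 0.0587). The difference between the genotypes' changes was itself not called, and the OE call was lost without any 1 of OE 8-week replicates 2, 3 and 4 and OE 20-week replicates 2, 3 and 4, with an adjusted p of 0.0604 to 0.0908.

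**Figure D4:**
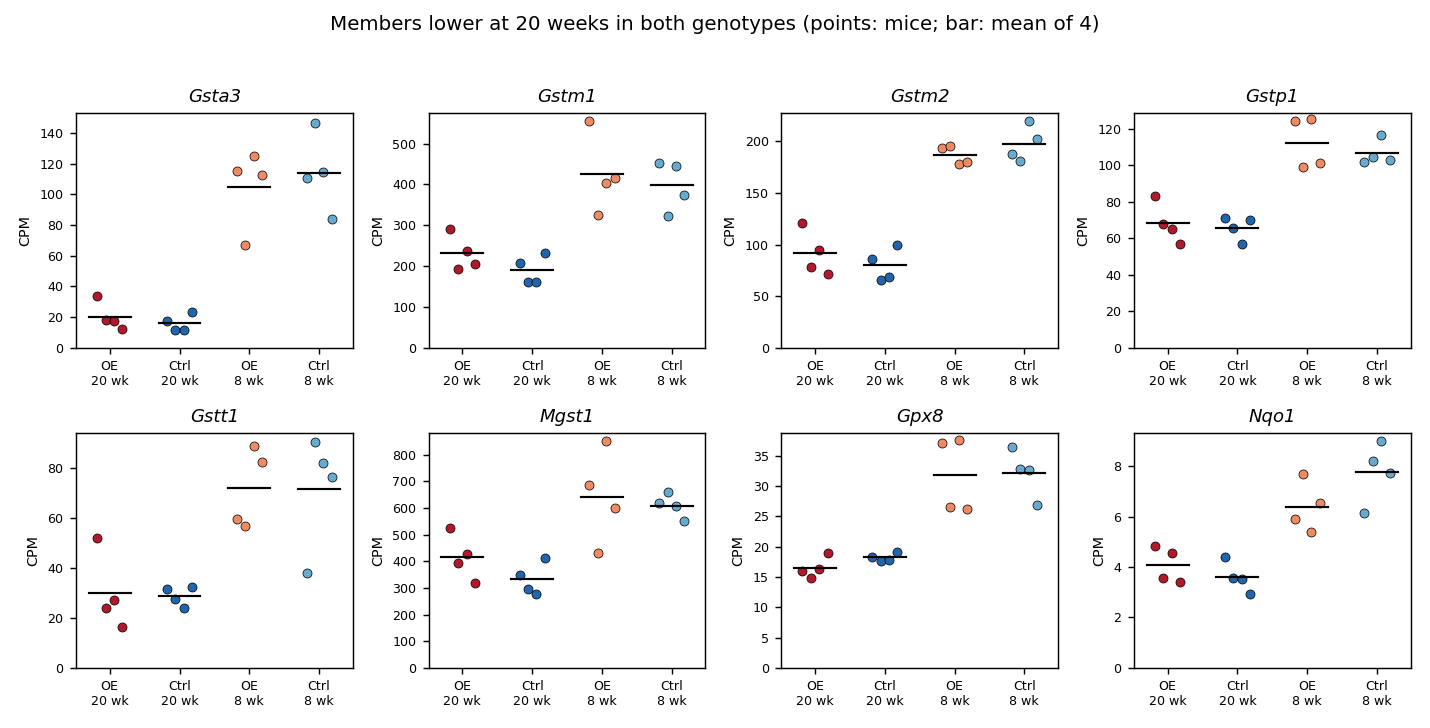
CPM (y axes, from 0) of 8 members that fell in both genotypes, by group (x axis), with points for mice and bars for the mean of 4. For Gsta3, Gstm1, Gstm2, Gstp1, Gstt1, Gpx8 and Nqo1 no 20-week mouse reaches the range of its own genotype at 8 weeks, while the Mgst1 ranges of OE overlap.

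Mgst1, the microsomal transferase that also reduces lipid peroxides, fell with a change of −0.63 ± 0.20 in OE (adjusted p = 0.0339) and −0.87 ± 0.20 in Ctrl (adjusted p = 0.00382). It was at 523, 393, 429 and 317 CPM in OE mice at 20 weeks, against 686, 429, 853 and 600.1 CPM at 8 weeks. In Ctrl mice Mgst1 was at 350.2, 295, 275 and 413 CPM at 20 weeks, against 620.4, 661, 607 and 549 CPM at 8 weeks, and only the Ctrl ages were separate. The OE call of Mgst1 was lost in 10 of 25 other settings, 6 of them fits without 1 library (adjusted p up to 0.121). Gsto2, an omega-class enzyme that reduces dehydroascorbate, was at 0.933, 0.642, 0.733 and 0.541 CPM in OE mice at 20 weeks, against 1.36, 1.32, 1.51 and 1 CPM at 8 weeks, with no overlap but no call (−0.86 ± 0.30, adjusted p = 0.0534). In Ctrl mice it was at 0.579, 0.812, 0.503 and 0.381 CPM at 20 weeks, against 1.67, 1.58, 1.25 and 2.79 CPM at 8 weeks, and fell with a change of −1.68 ± 0.31 (adjusted p = 0.000936). Gstk1, a transferase of mitochondria and peroxisomes that is also known for its part in adiponectin assembly, just missed the threshold in OE (−0.65 ± 0.22, adjusted p = 0.0511) and fell in Ctrl (−0.88 ± 0.23, adjusted p = 0.00762). Gsto1 was not called, at 0.35 ± 0.18 in OE and 0.23 ± 0.18 in Ctrl.

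Glutathione itself is made by glutamate-cysteine ligase, whose catalytic and modifier subunits are Gclc and Gclm, and then by Gss, and Gsr returns its oxidised form. Their changes were small. Gsr fell with a change of −0.35 ± 0.09 in OE (adjusted p = 0.0115) and −0.33 ± 0.09 in Ctrl (adjusted p = 0.00974), and Gclc with a change of −0.25 ± 0.08 (adjusted p = 0.0361) and −0.30 ± 0.08 (adjusted p = 0.00883). Gclm was not called in OE (0.00 ± 0.10) and fell in Ctrl (−0.32 ± 0.10, adjusted p = 0.0181). Gss was not called in either.

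Of the 5 glutathione peroxidases tested, 2 fell in OE and 3 fell in Ctrl, where 1 rose. Gpx8, a peroxidase of the endoplasmic reticulum, was at 16, 14.8, 16.3 and 19 CPM in OE mice at 20 weeks, against 37.1, 26.5, 37.6 and 26.2 CPM at 8 weeks. Ctrl mice had 18.4, 17.6, 17.9 and 19.1 CPM at 20 weeks, against 36.5, 32.9, 32.6 and 26.9 CPM at 8 weeks. No values overlapped, and it fell with a change of −0.95 ± 0.13 in OE (adjusted p = 0.00052) and −0.82 ± 0.13 in Ctrl (adjusted p = 0.000371). Gpx3, the secreted peroxidase of plasma, was at 322, 257, 300.4 and 256 CPM in OE mice at 20 weeks, against 417, 511, 787 and 707 CPM at 8 weeks, and fell with a change of −1.09 ± 0.27 (adjusted p = 0.00974). In Ctrl mice Gpx3 was at 452, 359, 357 and 319.7 CPM at 20 weeks, against 294, 573, 728 and 814 CPM at 8 weeks, where replicate 1 was lower than every 20-week Ctrl mouse. The Ctrl change of −0.70 ± 0.26 was at the edge of the threshold (adjusted p = 0.0478) and was lost in 17 of the 25 other settings, with 2 surrogate variables at −0.08. Gpx4 was not called in OE (−0.46 ± 0.20, adjusted p = 0.11) and fell with a change of −0.62 ± 0.20 in Ctrl (adjusted p = 0.0244). Gpx1 was at 599, 962, 762 and 1011 CPM in OE mice at 20 weeks, against 653, 511, 802 and 564 CPM at 8 weeks, which overlapped and was not called (0.40 ± 0.19, adjusted p = 0.15). In Ctrl mice Gpx1 rose, at 825, 1062, 989 and 674 CPM at 20 weeks, against 674, 499, 536 and 522 CPM at 8 weeks (0.67 ± 0.19, adjusted p = 0.0147). Those Ctrl ages were separate by a narrow gap. Gpx7 was not called.

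Peroxiredoxins moved in both directions. Prdx6, which also has phospholipase A2 activity, fell in OE (−0.64 ± 0.22, adjusted p = 0.0478) and Ctrl (−0.79 ± 0.22, adjusted p = 0.0115), and so did the mitochondrial Prdx3 (−0.30 ± 0.10, adjusted p = 0.0361, and −0.32 ± 0.10, adjusted p = 0.017). In OE the Prdx6 call was lost in 15 of 25 other settings, 12 of them fits without 1 library, OE or Ctrl, and the Prdx3 call in 10 of 25. Prdx5 was not called in OE (−0.27 ± 0.14) and fell in Ctrl (−0.47 ± 0.14, adjusted p = 0.0177). Prdx4, of the endoplasmic reticulum, was at 32.5, 38.3, 35.2 and 41.8 CPM in OE mice at 20 weeks, against 36.2, 31.1, 32.9 and 30.9 CPM at 8 weeks, and was not called (0.18 ± 0.12). In Ctrl mice Prdx4 was at 42.6, 44.6, 47.9 and 35.7 CPM at 20 weeks, against 36.1, 31.1, 39.2 and 26.6 CPM at 8 weeks, and rose with overlap (0.36 ± 0.12, adjusted p = 0.031). Srxn1 encodes sulfiredoxin, which repairs overoxidised peroxiredoxins. It was at 55.3, 72.1, 65.1 and 96.4 CPM in OE mice at 20 weeks, against 39.2, 71.2, 33.2 and 40.2 CPM at 8 weeks, where replicate 2 at 8 weeks, a library with epididymal duct transcripts, lay within the 20-week range (0.65 ± 0.23, adjusted p = 0.0551). In Ctrl mice Srxn1 was at 55.4, 73.5, 75.2 and 61.4 CPM at 20 weeks, against 44.7, 47.2, 41 and 29.9 CPM at 8 weeks. Those Ctrl ages were separate, and it rose there (0.71 ± 0.23, adjusted p = 0.0265). Prdx1 and Prdx2 were not called in either genotype.

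In the thioredoxin system, Txnrd3, a reductase best known from testis, fell with a change of −0.67 ± 0.16 in OE (adjusted p = 0.00845) and −0.97 ± 0.16 in Ctrl (adjusted p = 0.000447), and the mitochondrial Txn2 with a change of −0.40 ± 0.12 (adjusted p = 0.0225) and −0.48 ± 0.12 (adjusted p = 0.00547). The cytosolic Txn1 was at 149, 199, 166 and 239 CPM in OE mice at 20 weeks, against 144, 151, 156 and 162 CPM at 8 weeks, and was not called (0.30 ± 0.12). In Ctrl mice Txn1 was at 174, 189.6, 192 and 169 CPM at 20 weeks, against 143, 135, 146 and 149.9 CPM at 8 weeks, separate by age, and rose (0.34 ± 0.12, adjusted p = 0.0324). Txnrd1 and Txnrd2 were not called in either genotype. Of the 4 genes that remove superoxide and hydrogen peroxide directly, Sod1 fell with a change of −0.42 ± 0.11 in OE (adjusted p = 0.0133) and −0.51 ± 0.11 in Ctrl (adjusted p = 0.00265). The mitochondrial Sod2, the extracellular Sod3 and catalase were not called, with catalase at −0.16 ± 0.22 in OE and −0.46 ± 0.22 in Ctrl.

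Nfe2l2, which encodes NRF2, was the only member that rose in both genotypes. It was at 85.8, 137, 112 and 145 CPM in OE mice at 20 weeks, against 85.8, 89.7, 85.3 and 82.4 CPM at 8 weeks. Ctrl mice had 124, 118, 129.8 and 103 CPM at 20 weeks, against 79, 76.4, 83.4 and 82 CPM at 8 weeks. The Ctrl ages were separate, and in OE replicate 1 at 20 weeks lay within the 8-week range. The rise was 0.49 ± 0.13 in OE (adjusted p = 0.0146), lost without OE 20-week replicate 2 (adjusted p = 0.055) or 4 (adjusted p = 0.0575), and 0.57 ± 0.13 in Ctrl (adjusted p = 0.00362). Nqo1, a quinone reductase and a standard readout of NRF2, went the other way. It was at 4.84, 3.58, 4.56 and 3.4 CPM in OE mice at 20 weeks, against 5.92, 7.7, 5.38 and 6.53 CPM at 8 weeks, and at 4.4, 3.57, 3.52 and 2.94 CPM in Ctrl mice at 20 weeks, against 6.13, 8.23, 9.03 and 7.74 CPM at 8 weeks. Both were separate by age, and it fell, with changes of −0.64 ± 0.18 in OE (adjusted p = 0.018) and −1.11 ± 0.18 in Ctrl (adjusted p = 0.000382). Keap1 was not called, at −0.01 ± 0.06 in OE and −0.05 ± 0.06 in Ctrl. Of the tested members with a searched promoter, the response element core was in 3 of the 16 that fell in OE, in the 1 that rose there, which was Nfe2l2 itself, and in 6 of the 25 not called. In Ctrl it was in 6 of the 23 that fell, 2 of the 6 that rose and 2 of the 13 tested and not called.

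Pathway genes outside these families, from lists chosen by function, moved in both directions, with most of the oxidases rising. Of 20 other NRF2 target genes, 4 rose and 1 fell in OE and 6 rose and 2 fell in Ctrl, with medians of 0.10 and −0.08 beside −0.03 and −0.05 over all genes. Hmox1, heme oxygenase, rose by 1.64 ± 0.24 in OE (adjusted p = 0.000661) and 1.92 ± 0.24 in Ctrl (adjusted p = 9.11e-05), the ferritin light chain Ftl1 by 1.41 ± 0.21 and 1.63 ± 0.21, and the epoxide hydrolase Ephx1 by 0.61 ± 0.17 and 0.79 ± 0.17, while the autophagy adaptor Sqstm1 rose by 0.40 ± 0.10 in OE. Of 22 genes that handle glutathione, 6 rose and 6 fell in OE, and 6 rose and 8 fell in Ctrl. Hpgds, the sigma-class transferase that makes prostaglandin D2, rose by 3.34 ± 0.48 in OE and 4.45 ± 0.50 in Ctrl, opposite in sign to the mu and alpha classes, and the peptidases Anpep (2.88 ± 0.36 and 3.34 ± 0.37) and Dpep2 (2.49 ± 0.37 and 3.22 ± 0.38) rose as well. Of 10 NADPH oxidase genes, which make superoxide, 7 rose and none fell in OE, and 8 rose and 1 fell in Ctrl, with medians of 1.57 and 1.93. Cybb, the phagocyte catalytic subunit, rose by 1.78 ± 0.31 in OE (adjusted p = 0.00138) and 2.37 ± 0.31 in Ctrl (adjusted p = 0.000109), and Cyba by 1.86 ± 0.26 and 2.11 ± 0.26. Among 9 NRF2 regulators 1 rose and none fell in OE and 2 rose and 1 fell in Ctrl, with the repressor Bach1 rising in both (0.72 ± 0.16 and 0.88 ± 0.16), Bach2 rising in Ctrl (0.60 ± 0.21) and Cul3, the ligase that KEAP1 recruits, falling in Ctrl (−0.23 ± 0.08). Of 15 redox repair and NADPH genes, 2 rose and 3 fell in each genotype, with Sesn1 (0.73 ± 0.16 and 1.44 ± 0.16), Selenop (0.60 ± 0.15 and 1.25 ± 0.16), Park7 (−0.61 ± 0.13 and −0.72 ± 0.13) and Msrb1 (−0.41 ± 0.12 and −0.72 ± 0.12) called in both. Of 6 selenoprotein synthesis genes, 1 rose and 1 fell in OE, and 1 rose and 2 fell in Ctrl, with Sephs2, which makes selenophosphate, falling with a change of −0.39 ± 0.13 and −0.67 ± 0.13, Secisbp2 rising by 0.28 ± 0.08 and 0.21 ± 0.08, and Pstk falling in Ctrl with a change of −0.42 ± 0.14.

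Many cell type markers moved with age beside these genes. Over all genes tested, 13.1% rose and 9.91% fell in OE, and 19.6% rose and 21.3% fell in Ctrl. Of 12 mature adipocyte markers, 8 fell in OE and 9 in Ctrl, and their sum was 14505 to 28683 CPM at 20 weeks and 23034 to 44305 CPM at 8 weeks in OE, and 11517 to 20875 CPM and 28001 to 35885 CPM in Ctrl. All 12 macrophage markers rose in both genotypes, with a sum of 4539.6 to 11488 CPM at 20 weeks and 1766 to 3527 CPM at 8 weeks in OE, and 6933 to 11303 CPM and 1416 to 2515 CPM in Ctrl. Smooth muscle markers fell for 5 of 8 in OE and 7 of 8 in Ctrl. Their sum was 4277 CPM in OE replicate 2 and 4388 CPM in Ctrl replicate 4 at 8 weeks, the libraries highest in epididymal duct transcripts. It was 584 to 850 CPM in the other 8-week libraries and 209 to 513 CPM at 20 weeks. Endothelial markers fell for 1 of 8 and 7 of 8, mesothelial ones for 6 of 8 and 2 of 8, and erythroid ones for 6 of 7 and all 7. Mast cell markers rose for 5 of 6 in each genotype, and B cell markers for 1 of 6 in OE and 6 of 6 in Ctrl. T cell markers rose for 2 of 8 in each, with median changes of −0.27 in OE and 0.93 in Ctrl. Neutrophil markers rose for 1 of 4 tested in each, and stromal progenitor markers for 1 of 8 in OE, where 1 fell, and 3 of 8 in Ctrl. Of 5 epididymal duct markers tested, 2 fell in OE and 3 in Ctrl. The part of these shifts in the changes of the transferases and antioxidant genes was not tested.

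In OE, 11 of the 21 calls held in each of the 16 fits with 1 library left out, namely Gsta3, Gstm1, Gstm2, Gstm3, Gstm4, Gstp1, Gstt1, Gpx3, Gpx8, Gsr and Txnrd3. Without OE 20-week replicate 4, 10 calls were lost (adjusted p 0.0503 to 0.140), without replicate 2, 9 were lost (0.0504 to 0.107) and without replicate 3, 7 were lost (0.0560 to 0.0871). Without OE 20-week replicate 1, 31 members were called in place of 21, 6 of them rising and 25 falling, and over all genes 3107 rose and 2679 fell, against 2509 and 1902 with all libraries. Of the 33 calls in Ctrl, 23 held in each of those fits, among them Gsta3, Gsta4, all 7 mu-class genes, Gstp1, Gstt1, Gsto2, Gstk1, Mgst1, Gpx8, Nqo1, Sod1, Txnrd3 and Nfe2l2. Leaving out Ctrl 20-week replicate 2 lost 9 calls (Gclm, Gpx1, Gpx3, Txn1, Prdx4, Prdx5, Txnip, Srxn1 and Gpx4, adjusted p 0.0515 to 0.0991), and Ctrl 20-week replicate 3 lost 8 (adjusted p 0.0543 to 0.101), so that 1 rise was left without the first. Ctrl 8-week replicates 1, 2, 3 and 4 lost 4, 5, 5 and 3 calls, with an adjusted p of 0.0503 to 0.137.

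Set against Ctrl of the same age, OE mice showed few differences in these genes. No member passed the threshold at 20 weeks, at 8 weeks or on average, and the whole table gave few calls, with 0.0261% of genes at 20 weeks, 0.0208% at 8 weeks and 0.0365% on average. At an unadjusted p under 0.05, edgeR listed 4 members at 20 weeks, 2 at 8 weeks and 3 on average, of 762, 424 and 389 genes. DESeq2 called 1 member at 20 weeks, none at 8 weeks and 1 on average, and voom called 1 at 8 weeks. All the pathway lists outside the members had 0 called genes between the genotypes at either age. Gsta3 was not called between the genotypes, with OE minus Ctrl at 0.34 ± 0.32 at 20 weeks and −0.12 ± 0.31 at 8 weeks, and its sign at each age turned with a single library left out.

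Gsta4 had the smallest unadjusted p of the members at 20 weeks. Its 20-week values in the OE mice (21, 10.2, 9.56 and 5.16 CPM) were higher than those of the Ctrl mice (2.69, 1.49, 1.71 and 5.69 CPM), except that OE replicate 4 lay below Ctrl replicate 4. At 8 weeks its values were 13.9, 46.4, 44.6 and 38.3 CPM in OE, against 26.7, 17.9, 19.9 and 19.2 CPM in Ctrl, where OE replicate 1 was the lowest of the 8 and the other 3 OE mice were the highest. The difference of OE minus Ctrl was 1.99 ± 0.49 at 20 weeks (adjusted p = 0.675), 0.77 ± 0.46 at 8 weeks (adjusted p = 1) and 1.38 ± 0.34 on average (adjusted p = 0.981) by edgeR's quasi-likelihood test. With DESeq2 it passed at 20 weeks (adjusted p = 0.0126) and on average (adjusted p = 0.0182), and over all settings tried its adjusted p ran from those values up to 1, with a 20-week difference of 1.52 to 2.55. Adipocyte markers were 14505 to 28683 CPM in OE and 11517 to 20875 CPM in Ctrl at 20 weeks, with 0 of 12 called. B cell markers summed to 15.8 to 30.1 CPM in OE and 37.7 to 114 CPM in Ctrl at 20 weeks, and mesothelial markers to 44.1 to 119 CPM in OE and 130.2 to 327 CPM in Ctrl. Neither of the 2 sums overlapped between the genotypes, with 0 of 6 and 0 of 8 genes called. The part of these markers in the difference was not tested.

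**Figure D5:**
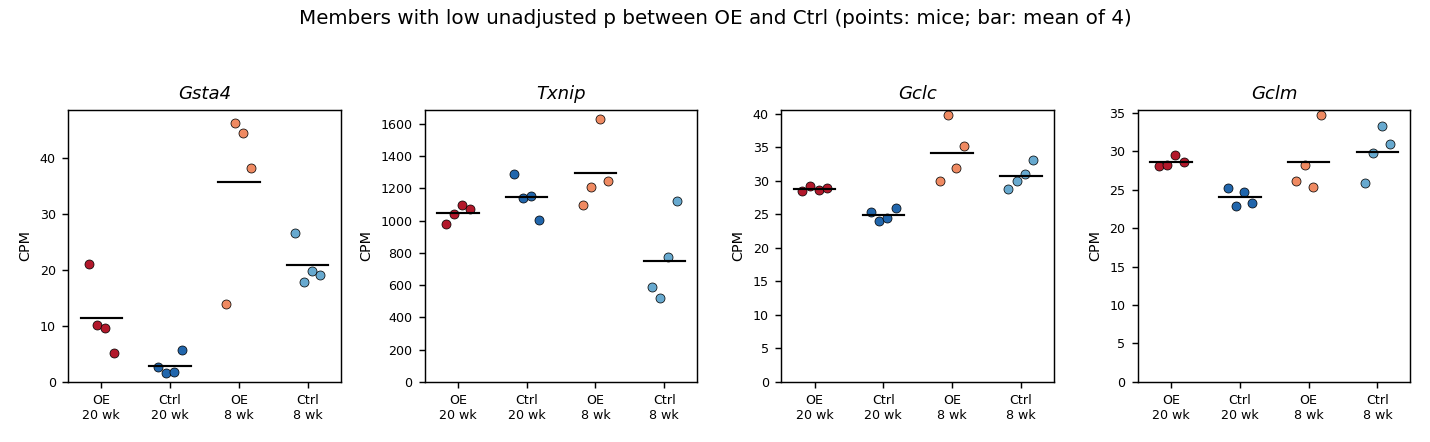
CPM (y axes, from 0) of Gsta4, Txnip, Gclc and Gclm by group (x axis), with points for mice and bars for the mean of 4. The OE points lie above the Ctrl points at 20 weeks for Gclc and Gclm and mostly so for Gsta4, and Txnip shows its widest gap between the genotypes at 8 weeks.

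Gsta4 (chromosome 9, 78191966 to 78209349) and Gclc (chromosome 9, 77754535 to 77794489), the pair with the smallest unadjusted p on average, lie less than 500 kb apart. Within 10 Mb on either side of the start of Gsta4, 12 of 114 tested genes, Gsta4 and Gclc included, had an unadjusted p under 0.05 on average between the genotypes, or 10.5%, against 1.98% of the 19031 genes elsewhere. Of these 12, 6 were higher in OE. At 20 weeks it was 7.89% against 3.96%, and at 8 weeks 4.39% against 2.2%. This window was chosen after the values were seen, and with 5 Mb on either side the average gave 13% against 2%, with 20 Mb 7.5% against 1.95%. Of the genes within 10 Mb, 0 were called between the genotypes at either age or on average. Zfp949, called at 20 weeks and on average, lies outside the 10 Mb window on the same chromosome, at 88548020 to 88571086.

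Gclc and Gclm were the members without overlap between the genotypes at 20 weeks, 2 of 49, beside 1.24% of all genes that lay wholly above, and none lay wholly below, beside 1.49%. Gclc was at 28.5, 29.2, 28.6 and 28.9 CPM in OE mice, against 25.3, 24, 24.4 and 26 CPM in Ctrl mice at 20 weeks. Gclm was at 28.2, 28.3, 29.5 and 28.7 CPM in OE mice, against 25.2, 22.9, 24.8 and 23.3 CPM in Ctrl mice at 20 weeks. The 4 mice of each group were tightly spaced, and the differences were small, 0.21 ± 0.08 for Gclc and 0.25 ± 0.10 for Gclm, each with an adjusted p of 0.996 by edgeR's quasi-likelihood test. At 8 weeks Gclc was at 30.0, 39.8, 31.9 and 35.2 CPM in OE, against 28.7, 30.0, 31 and 33.2 CPM in Ctrl (0.15 ± 0.08), and Gclm at 26.2, 28.2, 25.4 and 34.8 CPM in OE, against 25.9, 29.7, 33.3 and 31 CPM in Ctrl (−0.07 ± 0.10), with overlap for both. No member lay wholly above or below between the genotypes at 8 weeks, beside 0.787% and 0.448% of all genes.

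Txnip, the inhibitor of thioredoxin that also restrains glucose uptake, had the smallest unadjusted p at 8 weeks. It was at 1095, 1211, 1631 and 1247 CPM in OE, against 591, 520.1, 774 and 1124 CPM in Ctrl. Only Ctrl replicate 4, at 1124 CPM, reached the OE range. The difference was 0.78 ± 0.20 (adjusted p = 1) by edgeR's quasi-likelihood test, it passed with voom and quality weights (1.08, adjusted p = 0.0266) and without Ctrl replicate 4 (1.04, adjusted p = 0.0473), a library with epididymal duct transcripts. Without both libraries highest in those transcripts, Ctrl replicate 4 and OE replicate 2, Txnip did not pass (1.07, adjusted p = 0.065). At 20 weeks it was at 980.4, 1039.7, 1098 and 1073 CPM in OE, against 1288, 1139, 1156 and 1005 CPM in Ctrl, with overlap (−0.13 ± 0.20). By age, Txnip was not called in OE (−0.31 ± 0.20) and rose in Ctrl with overlap (0.61 ± 0.20, adjusted p = 0.0267), a call lost without Ctrl 8-week replicate 1, 2 or 3 or Ctrl 20-week replicate 1, 2 or 3 (adjusted p 0.0508 to 0.0769).

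Next by unadjusted p were members with small or uneven differences, none of them called. At 20 weeks these were Gstm6 (1.12 ± 0.66 for OE minus Ctrl) and Prdx4 (−0.21 ± 0.12), at 8 weeks Gsto2 (−0.49 ± 0.30) and Nqo1 (−0.29 ± 0.18), and on average Txnip (0.33 ± 0.14), Gstm7 (1.05 ± 0.71) and Gstm1 (0.19 ± 0.13). Prdx6b was among the smallest p at 8 weeks and on average. Its values were 0.123, 0, 0.131 and 0.0451 CPM in OE and 0.377, 0, 0 and 0 CPM in Ctrl at 20 weeks. At 8 weeks they were 0, 0.0539, 0.0591 and 0.0873 CPM in OE and 0, 0.583, 0.907 and 1.72 CPM in Ctrl. Its counts were at most 5 in OE libraries and up to 127 in Ctrl libraries. It passed the count filter through Ctrl libraries alone, so its p between the genotypes is not independent of that filter.

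The change with age was also compared between the genotypes as an interaction, OE minus Ctrl. It called 0% of genes and 0 members, with 650 genes and 2 members, Txnip and Gclm, at an unadjusted p under 0.05. DESeq2 called 20 genes higher, 10 lower and 0 members. Txnip had the smallest p, with −0.92 ± 0.28 (adjusted p = 0.982), and Gclm had 0.32 ± 0.14 (adjusted p = 0.982). Next by p were Gsto2 (0.81 ± 0.43), Nqo1 (0.47 ± 0.25), Gsta4 (1.21 ± 0.67) and the scarce Prdx6b, which did not exceed 1.72 CPM and passed the count filter through Ctrl libraries alone. Gsta3 had 0.46 ± 0.45 and Gstm7 2.46 ± 1.42. Gstm7 was also listed at 20 weeks between the genotypes (2.28 ± 1.06, adjusted p = 0.996), which rested on OE replicate 1, since the other 3 OE mice lay between 1.83 and 3.54 CPM, against 1.66 to 2.59 CPM in Ctrl.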

How the data were processed

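Reads were made from TruSeq stranded mRNA libraries of RNeasy-extracted RNA, per the labels' protocols. The submitters' processing notes name bcl2fastq 2.20.0, Trimmomatic, HISAT2 2.1.0, StringTie 2.1.3b and the mm10 build; the strand setting and annotation release are not given in the sources used here. The authors deposited raw counts per gene, FPKM values and TPM values for each of the 16 libraries. The deposited FPKM were not used, the deposited TPM served for levels across genes, and the deposited counts served for all tests.

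Counts were filtered (edgeR 4.0.16 filterByExpr, minimum count 10), scaled with TMM and fitted with edgeR's robust quasi-likelihood model with all 4 groups, 12 residual degrees of freedom and 6 contrasts. Adjusted p is Benjamini-Hochberg over 19189 genes, and a call is an adjusted p under 0.05. The scripts were tested on simulated data. Alternatives were DESeq2 1.42.0, limma 3.58.1 voom with quality weights, edgeR with DESeq2 size factors, no filter, fits of the compared groups alone, a replicate block, 2 surrogate variables (sva 3.50.0), each library left out in turn, and the libraries that stood apart left out in pairs. R 4.3.3, Python 3.11.15, matplotlib 3.10.9 and BLAST 2.17.0 were used, with promoter sequences from RefSeq on GRCm38.p6.

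Genes named are Lta4h, Gsta3, Gsta4 and Gstm7, every member called, up to 10 largest changes per direction with values per mouse, the 6 smallest p where fewer than 6 were called, the members that did not pass the filter, and up to 3 called genes per pathway list and age comparison. Of the genes this rule names, 1 is not reported here. Members and lists were chosen with earlier results of these data known. Zfp949, the chromosome 9 window and a few other genes named beside counts were chosen after their values were seen.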

Additional observations from a re-analysis of the deposited data

Results flagged for a closer look

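In 5 of 196 groups of 4 mice, 1 value stood far from the other 3 by Dixon's test, where chance flags about 1 in 20 groups. OE replicate 1 at 20 weeks stood apart for 3 neighbouring mu-class transferases. Gstm5 was at 49.7 CPM in it against 9.13 to 13.2 CPM in the other 3 mice, Gstm6 at 10.3 CPM against 1.56 to 1.81 CPM, and Gstm7 at 34.9 CPM against 1.83 to 3.54 CPM. The same library had the highest adipocyte marker sum at 20 weeks, 28683 CPM, and the lowest macrophage marker sum, 4540 CPM, and their part in the 3 values was not tested. Gss, glutathione synthetase, was at 17.4 CPM in OE replicate 3 at 20 weeks, against 18.6 to 18.7 CPM in the others, a small gap in a tight group. Prdx6b was at 0.377 CPM in Ctrl replicate 1 at 20 weeks and listed at 0 in the other 3.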

How the results depend on the processing

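Members called between the genotypes were 0 in most settings, with 1 higher at 8 weeks by voom, 1 higher at 20 weeks and 1 on average by DESeq2. Members rising with age in OE numbered 3 by DESeq2, 6 by voom, 0 with the 2 ages of OE fitted alone, 2 with the replicate block and 3 without Ctrl_8wk 4 and OE_8wk 2, and those falling 13 in that fit of OE alone; members rising in Ctrl were 2 with 2 surrogate variables. With 1 library left out, members called higher at 8 weeks ranged from 0 to 1, rising in OE 0 to 6, falling in OE 11 to 25, rising in Ctrl 1 to 7 and falling in Ctrl 23 to 28. Over all genes, DESeq2 called 10 higher and 5 lower at 8 weeks, 40 and 20 at 20 weeks, 30 and 3 on average and 20 and 10 for the interaction. Voom called 10 and 2 at 8 weeks, 14 and 6 at 20 weeks, and 3975 rising and 3673 falling in OE. Fits of the compared groups alone gave 7 and 1 at 8 weeks, and 2 surrogate variables gave 8 and 1 at 8 weeks and 13 and 1 on average. The replicate block gave 2 higher at 8 weeks and 2 at 20 weeks, and the Mgst1 change in OE was −0.62 in it (adjusted p = 0.0513). Replicate numbers did not pair the mice in general, with same-number correlations of −0.198 to 0.826 at 8 weeks and −0.239 to 0.0292 at 20 weeks. The exception was the libraries numbered 1 at 8 weeks, with a correlation of 0.826. With 1 library left out, all genes called ranged from 4 to 8 higher and 0 to 1 lower at 8 weeks, 3 to 5 and 0 to 1 at 20 weeks, 6 to 10 and 0 to 1 on average, 1719 to 3107 rising and 1014 to 2679 falling in OE, 2965 to 3840 rising and 2518 to 4318 falling in Ctrl, and 0 to 3 lower for the interaction. Differences that turned sign were uncalled ones, given here as ranges with 1 library left out. For OE minus Ctrl, Gstm7 ranged from −1.03 to 0.47 at 8 weeks (0.25 with 2 surrogate variables) and from −0.0052 to 1.38 on average, Gsta3 from −0.24 to 0.044 at 8 weeks, −0.022 to 0.60 at 20 weeks and −0.075 to 0.24 on average, Gstm6 from −0.034 to 1.45 at 20 weeks, and Prdx6b, a fitted value of a gene listed at 0 in 6 of 16 libraries, from −2.32 to 0.39 on average. At 20 weeks and for Gstm7 and Gsta3 on average the turn came without OE_20wk 1, and for Prdx6b without Ctrl_20wk 1. Lta4h by age in Ctrl ranged from −0.074 to 0.060, with 0.046 by voom and 0.060 without the libraries numbered 1 at 8 weeks. The causes were not tested. DESeq2 size factors moved the median of all genes by under 0.01.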
